A study of Mus musculus with 6 samples.

Results

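The chemokines and their receptors were followed in RNA from cells sorted as neurons out of the mouse cortex bordering a stroke. Members were taken by name from the deposited table, as every symbol of the Ccl, Cxcl, Cx3cl, Xcl, Ccr, Cxcr, Cx3cr, Xcr and Ackr series plus Ccrl2. This gave 62 of the 24419 listed genes, 39 of them ligands and 23 receptors. All animals were wild-type C57BL/6N males in which the middle cerebral artery was closed for 60 min. The treated group was given 600 ng of 15-HETrE, a hydroxy fatty acid, intravenously in 150 µL of PBS at 24, 48 and 72 h after onset, and the control group was given vehicle on the same schedule. On day 4 the tissue around the infarct was dissociated and cells positive for Thy1 and negative for ACSA2, CD31, CD45 and O4 were collected. Each group had 3 libraries. Whether the libraries come from separate animals is not stated in the labels, so p-values reflect only how far these libraries differ, and that spread may be technical. By their column names the libraries are called vehicle 1, vehicle 2 and vehicle combined, and 15-HETrE 1, 15-HETrE unnumbered and 15-HETrE combined; the meaning of combined is unknown here. Values are listed in that order, vehicle before 15-HETrE.

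Chemokines are small secreted proteins that draw cells along a gradient. They are grouped by the spacing of their first cysteines into CC, CXC, CX3C and XC families, and they act through receptors with several membrane passes that couple to inhibitory G proteins, while atypical receptors bind the same ligands and clear or hold them. In injured brain, CC ligands such as Ccl2 are known to attract monocytes, CXC ligands with a glutamate-leucine-arginine (ELR) motif such as Cxcl1 are known to attract neutrophils, and Cx3cl1 is a membrane-anchored ligand of neurons that is read by the microglial receptor Cx3cr1. Many inflammatory chemokine genes are controlled by the transcription factor NF-kappaB through short kappaB sites near the start of the gene.

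The promoters of the ELR ligands Cxcl1 and Cxcl2 are shown because these neighbouring genes were both highest in vehicle 2. That of the interferon-induced ligand Cxcl10 is shown because its difference changed sign between the combined pair and the libraries that share a name prefix. Other members, among them Cxcl12 and Cxcr4, changed sign in the same way, and Cxcl10 too was highest in vehicle 2. The sequences are from RefSeq on GRCm38.p6 and run 5′ to 3′ towards the gene. Each stops before the first base of the gene in GENCODE M21. It thus ends short of the RefSeq start by 4 bases for Cxcl1, 28 for Cxcl2 and 0 for Cxcl10. Cxcl1 covers chr5:90890995-90891240 on the plus strand, Cxcl2 covers chr5:90903649-90903870 on the plus strand and Cxcl10 covers chr5:92348890-92349139 on the minus strand. Capitals mark matches to a kappaB-like motif (GGG, 2 bases of any kind, TTTCC), an interferon-response motif (TTTC, 2 bases of any kind, TTTC) and the AP-1 motif TGANTCA, each searched on both strands.
Cxcl1: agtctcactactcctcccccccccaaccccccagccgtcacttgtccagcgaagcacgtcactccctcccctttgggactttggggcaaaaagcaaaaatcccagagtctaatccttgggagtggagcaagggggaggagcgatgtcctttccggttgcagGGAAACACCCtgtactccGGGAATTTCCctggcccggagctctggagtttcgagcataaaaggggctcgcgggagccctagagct
Cxcl2: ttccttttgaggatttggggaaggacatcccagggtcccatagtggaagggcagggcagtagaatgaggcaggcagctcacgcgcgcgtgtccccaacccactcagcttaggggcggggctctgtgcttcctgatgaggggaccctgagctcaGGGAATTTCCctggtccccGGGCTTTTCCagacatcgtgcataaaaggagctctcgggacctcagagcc
Cxcl10: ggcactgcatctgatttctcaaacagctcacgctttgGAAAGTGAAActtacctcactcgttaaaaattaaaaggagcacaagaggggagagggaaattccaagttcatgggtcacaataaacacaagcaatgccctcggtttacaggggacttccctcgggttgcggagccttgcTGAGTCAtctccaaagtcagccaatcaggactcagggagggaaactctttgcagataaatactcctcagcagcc
The Cxcl1 and Cxcl2 promoters both held GGGAATTTCC, which began 71 bases before the RefSeq start of Cxcl1 and 97 bases before that of Cxcl2. Cxcl1 held another match on the opposite strand, and Cxcl2 held GGGCTTTTCC, which began 78 bases before its start. Cxcl10 had no match to the kappaB-like motif in the form searched here. It did match the looser form given below, for example with GGGGACTTCC, which began 104 bases before its start. Matches to the looser form alone are left in lower case. The capitals of Cxcl10 are GAAAGTGAAA, an interferon-response match on the opposite strand, and TGAGTCA.

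Promoters in the reference table matched 46 of the 62 members; those of Ccl2, Ccl7 and Ccl11 were not among them. In the 250 bases before the start, the kappaB-like motif occurred in 6 of the 46, namely Ccl9, Ccl20, Ccr3, Cxcl1, Cxcl2 and Cxcl3, and in 1.41% of all 27025 genes of the table. The interferon-response motif occurred in 3 of the 46, against 3.05% of all genes, TGANTCA in 4, against 6.85%, and TATAAA in 12, against 13%. A looser form (GGG, 5 bases of any kind, CC), which includes every kappaB-like match, occurred in 25 of the 46, against 45.4% of all genes. Cxcl10 was among the 25. A match is a run of letters and not evidence that a factor binds there. Ccr3, which carries the kappaB-like motif, had no read in any library.

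The libraries held 5405245 to 22558400 reads assigned to genes, with vehicle combined the shallowest. Members together took 0.0378% to 0.0744% of the reads. Levels are given in CPM, the deposited scale of reads relative to library size, and the smallest level that 3 reads give lay between 0.135 and 0.540 CPM. Although the cells were sorted as neurons, the 12 neuronal markers summed to 2299 to 6862 CPM and the 10 oligodendrocyte markers to 15937 to 33070 CPM; the lists hold different genes, so this does not compare cell numbers. All 9 monocyte and neutrophil markers in the table together reached 1.80 to 4.72 CPM with vehicle and 0 to 1.32 CPM with 15-HETrE. Fibroblast, microglia and astrocyte markers differed several-fold between libraries of the same group, and their values stand beside the members below.

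Of the 62 members, 28 had a mean of at least 1 CPM over the 6 libraries and were tested, 18 ligands and 10 receptors. The other 34 were under that mean. No read was found for 15 of them: Ccl1, Ccl21a, Ccl21b, Ccl21c, Ccl24, Ccl26, Ccl27b, Cxcl11, Cxcl15, Xcl1, Ccr3, Ccr6, Ccr8, Cxcr1 and Cxcr2. The genes Ccl21a, Ccl21b, Ccl21c and Ccl27b have near-identical copies, so reads from them could have been dropped or split in counting. The remaining 19 had between 1 and 84 reads in all, among them the ligands Ccl5, Ccl6, Ccl8, Ccl12, Ccl17, Ccl20, Cxcl3, Cxcl5, Cxcl9, Cxcl13 and Cxcl17, and the receptors Ccr1, Ccr2, Ccr4, Ccr7, Ccr10, Cxcr3 and Xcr1.

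**Figure D1:**
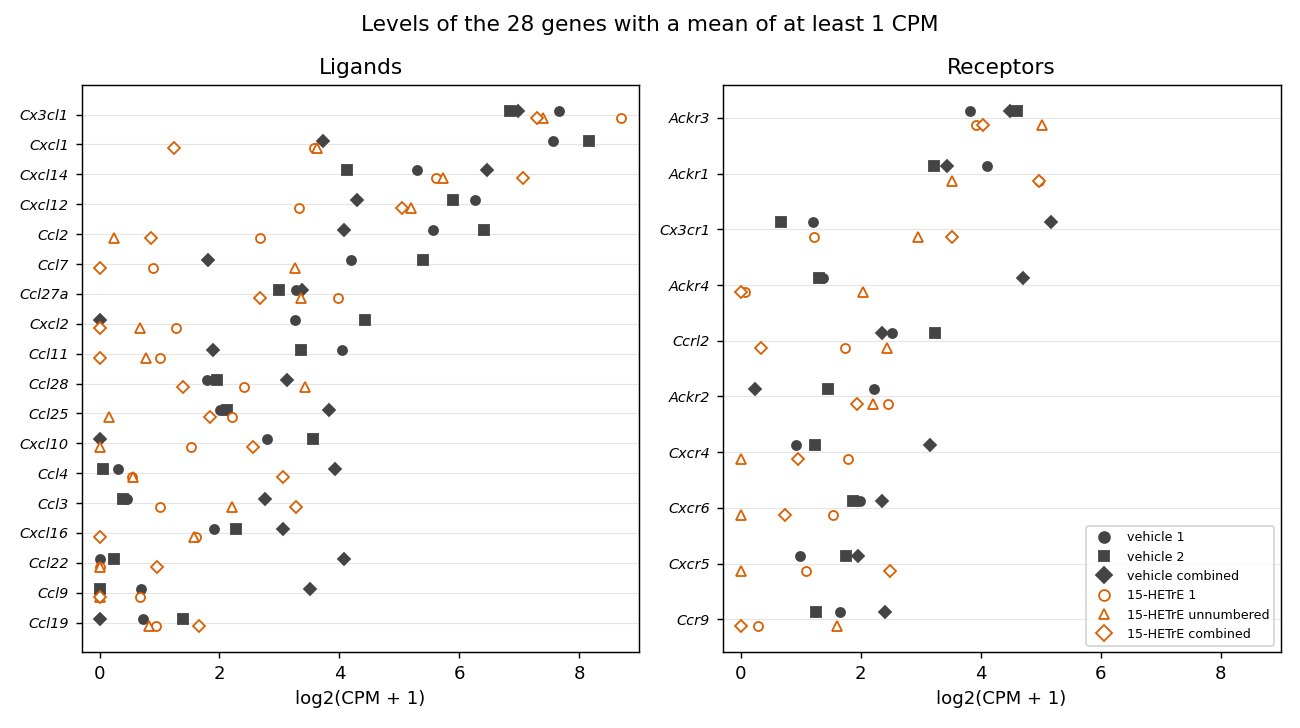
Level of each tested member in each library, as log2(CPM + 1) on the horizontal axis, ligands left and receptors right, ordered by mean CPM; filled dark symbols are vehicle and open orange symbols 15-HETrE libraries. Cxcl1, Ccl2 and Ccl11 have every vehicle symbol to the right of every 15-HETrE symbol, and Cx3cl1 has the highest mean.

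The comparison asked how these transcripts differed between the 15-HETrE and the vehicle libraries. The inflammatory ligands Ccl2, Cxcl1, Ccl11 and Ccl7 were lower after 15-HETrE, with log2 fold changes of -4.09, -3.66, -2.50 and -2.41, but no member passed the test over all genes. Ccl2 averaged 48.8 ± 34.2 CPM with vehicle against 2.14 ± 2.86 CPM with 15-HETrE (SD, 3 libraries each), and Cxcl1 had 161 ± 138 and 7.91 ± 5.68 CPM. The neuronal ligand Cx3cl1 had 147 ± 48.2 and 245 ± 146 CPM, with overlapping libraries. As these are bulk samples, fewer cells of a type and less RNA per cell cannot be told apart. Fold changes are 15-HETrE minus vehicle on the log2(CPM + 1) scale, which understates changes of low genes, and the test was limma's with Benjamini-Hochberg adjustment at 0.05.

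Over all 14523 genes tested, 0 passed, which is 0% (limma, smallest adjusted p 0.131), and the quasi-likelihood test of edgeR, run on recovered reads, also called 0, or 0%. At an unadjusted p under 0.05, 4 of the 28 members were lower in 15-HETrE, against 5.23% of all genes, and 0 were higher, against 4.27% of all genes. In edgeR 3 members were lower at that p, against 4.84% of all genes. No vehicle library lay within the 15-HETrE range, or the reverse, for 5 lower members, Ccl2, Cxcl1, Ccl11, Cxcl16 and Cxcr6, against 8.32% of all genes; 0 were higher without overlap, against 6.84%. With libraries weighted by their agreement (limma, library weights) 7 members passed as lower, against 9.41% of all genes, and 3 as higher, against 7.29%. That fit gave the most weight to vehicle 2 and 15-HETrE 1. Of the 28 tested members, 18 had a fold change below 0, against 49% of all genes. For 4 of them, Ccl2, Cxcl1, Ccl11 and Ccl7, it was below -2, against 1.52% of all genes. The median log2 fold change was -1.04 over the 18 ligands, -0.61 over the 10 receptors and 0.02 over all genes tested. Ccl9, Ccl11, Ccl22, Cxcl2, Ccr9 and Cxcr6 averaged under 1 CPM with 15-HETrE and passed the filter only through their vehicle values. Ccl19 passed it only through its 15-HETrE values. The direction of the mean CPM of such members followed from the filter, and they are part of these counts and medians. Without vehicle combined the ligand and receptor medians became -0.39 and -0.17; the ligand median was -0.21 with library weights and -0.29 with no filter on low levels, and the receptor median was 0.12 with the filter at 5 CPM.

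Ccl2 encodes the main attractant of monocytes bearing Ccr2 and lies on chromosome 11, 82035571 to 82037453, plus strand (GRCm38). It stood at 46.4, 84.0 and 15.8 CPM with vehicle. With 15-HETrE it stood at 5.42, 0.179 and 0.811 CPM, the lower values resting on 3 and 6 reads. Every vehicle library was above every 15-HETrE library, and vehicle combined, the lowest of its group, was still above 15-HETrE 1. The log2 fold change was -4.09 (SE 0.80, adjusted p 0.334, limma). Vehicle 1, vehicle 2 and 15-HETrE 1 share the first prefix of the column names, and the difference was -3.31 among these; for the combined pair it was -3.22. Without vehicle combined, Ccl2 passed at an adjusted p of 0.0446 (limma, log2 fold change -4.73), where 0.613% of all genes passed as lower and 0.0138% as higher. DESeq2 on the recovered reads also called it, at an adjusted p of 0.000956, where 0.898% of genes were called lower and 0.242% higher. Over the 18 alternatives the adjusted p ran from 0.000497 (limma with library weights) to 0.91 (limma without vehicle 2). All exon bases of Ccl2 lie in an intron of the opposite-strand gene model Gm17268.

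Ccl7, which acts on several receptors of monocytes, and Ccl11, known as eotaxin, follow Ccl2 on chromosome 11, starting 10.1 and 22.3 kb after it. Ccl7 gave 17.4, 40.8 and 2.52 CPM with vehicle, then 0.865, 8.59 and 0 CPM with 15-HETrE. The groups overlapped, because 15-HETrE unnumbered was above vehicle combined. Its log2 fold change was -2.41 (SE 1.06, adjusted p 0.519, limma), with -3.89 within the first prefix and -1.81 in the combined pair. Ccl11 gave 15.4, 9.31 and 2.70 CPM with vehicle, then 1.00, 0.716 and 0 CPM with 15-HETrE. Here the groups did not overlap, and the log2 fold change was -2.50 (SE 0.76, adjusted p 0.422, limma), with -2.70 and -1.89 within the first prefix and the combined pair. Ccl12 and Ccl8, 66.3 and 79.6 kb after the start of Ccl2, had 24 and 35 reads in all 6 libraries together. Of these 5 neighbouring genes, Ccl2, Ccl7 and Ccl11 had a mean above 1 CPM, and Ccl12 and Ccl8 did not.

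Cxcl1, an ELR ligand of the neutrophil receptor Cxcr2, lies on chromosome 5, 90891241 to 90893115, plus strand (GRCm38). It gave 187, 285 and 12.2 CPM with vehicle, then 11, 11.4 and 1.35 CPM with 15-HETrE. The groups did not overlap, but vehicle combined, with 68 reads, was close to 15-HETrE 1 and unnumbered. The log2 fold change was -3.66 (SE 1.06, adjusted p 0.401, limma), with -4.27 within the first prefix and -2.49 in the combined pair. Cxcl1 passed limma without vehicle combined (log2 fold change -5.04, adjusted p 0.0318) and without both combined libraries (-4.25, adjusted p 0.0108), where 1.07% of all genes passed as lower and 0.0138% as higher. Over the alternatives the adjusted p ran from 0.000192 (limma with library weights) to 0.91 (limma without vehicle 2).

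Cxcl2, the next gene on the chromosome and another ligand of Cxcr2, gave 8.6, 20.5 and 0 CPM with vehicle, then 1.41, 0.597 and 0 CPM with 15-HETrE. Both combined libraries had no read, so the difference rested on the others and was -2.57 within the first prefix and 0 in the combined pair (limma over all 6, log2 fold change -1.91, SE 1.07, adjusted p 0.610). The fold change became -0.98 without vehicle 2 and -3.20 without vehicle combined. Cxcl5, Cxcl3 and Cxcl15, upstream in the same cluster, had 18, 1 and 0 reads. Vehicle 2 was the highest library and vehicle 1 the second for Cxcl1 and Cxcl2, as for Ccl2 and Ccl7. For Ccl11 the order of those libraries was the opposite.

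**Figure D2:**
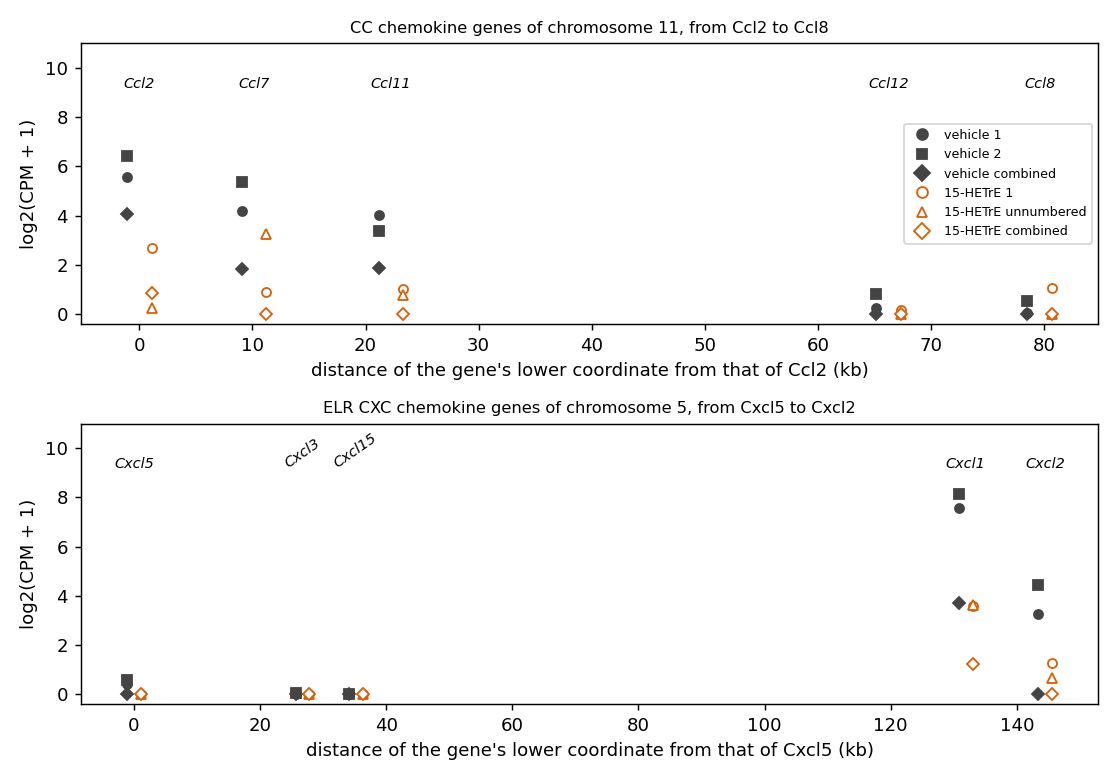
Levels along a CC cluster of chromosome 11 (top) and the ELR CXC cluster of chromosome 5 (bottom), as log2(CPM + 1) against distance in kb from Ccl2 or Cxcl5; vehicle symbols are drawn slightly left and 15-HETrE symbols slightly right of each gene's position. Ccl2, Ccl7, Ccl11, Cxcl1 and Cxcl2 stand above the floor in vehicle 1 and vehicle 2, while Ccl12, Ccl8, Cxcl5, Cxcl3 and Cxcl15 are each under a mean of 1 CPM.

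Fibroblast markers were also uneven between the libraries. The 10 markers summed to 12837, 10423 and 1526 CPM with vehicle and to 1258, 2271 and 1301 CPM with 15-HETrE. Col1a1, a type I collagen chain, gave 2811, 1718 and 11.3 CPM with vehicle, then 19.3, 421 and 2.84 CPM with 15-HETrE, and none of the 10 was at 0 in all libraries. Pdgfra, which oligodendrocyte precursors also express, made up 1382 of the 1526 CPM in vehicle combined. It also made up 1035 of the 1258 CPM in 15-HETrE 1 and 1228 of the 1301 CPM in 15-HETrE combined. In 15-HETrE unnumbered it was 428 of the 2271 CPM. All 10 had a fold change below 0, against 49% of all genes, with a median of -2.10, against 0.02 over all genes. At an unadjusted p under 0.05 (limma) 2 of the 10 were lower, against 5.23% of all genes, and 0 were lower without overlap, against 8.32%. Within the vehicle group Cxcl1 was also high in vehicle 1 and vehicle 2. Ccl2 had 15.8 CPM in vehicle combined, where Col1a1 was at 11.3 CPM. In 15-HETrE unnumbered Ccl2 had 0.179 CPM, from 3 reads, and Col1a1 was at 421 CPM. Ccl7 had 2.52 CPM in vehicle combined and 8.59 CPM in 15-HETrE unnumbered. Pericyte and smooth muscle markers summed to 979 to 1429 CPM with vehicle and 296 to 845 CPM with 15-HETrE, without overlap. Of the 10, 6 were lower at an unadjusted p under 0.05 (limma), against 5.23% of all genes. The part of these cell types in the ligand differences was not tested.

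The other inflammatory CC ligands tested had no common direction. Ccl3 and Ccl4, macrophage inflammatory proteins that microglia make, stood at 0.374, 0.315 and 5.75 CPM and at 0.234, 0.0450 and 14.2 CPM with vehicle. With 15-HETrE Ccl3 stood at 1.00, 3.64 and 8.65 CPM and Ccl4 at 0.455, 0.477 and 7.30 CPM. Both were highest in the combined libraries of either group, and their log2 fold changes were 0.96 and -0.05 (adjusted p 0.752 and 0.992, limma). Ccl3 became 0.40 without 15-HETrE combined and 1.74 without vehicle combined, and Ccl4 turned to 1.20 without vehicle combined. Ccl9 gave 0.608, 0 and 10.4 CPM with vehicle, then 0.592, 0 and 0 CPM with 15-HETrE, so that 58 of its 84 reads were in vehicle combined (fold change -1.18, adjusted p 0.719, limma, and -0.12 without that library). Cxcl10, the ligand of Cxcr3, gave 5.89, 10.8 and 0 CPM with vehicle, then 1.87, 0 and 4.87 CPM with 15-HETrE. Its groups overlapped, with a library at 0 in each (log2 fold change -0.76, adjusted p 0.833, limma), and its difference was -1.65 within the first prefix and 2.55 in the combined pair. It became -0.035 without vehicle 2 and -1.82 without vehicle combined.

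The microglial receptor Cx3cr1 was, like Ccl3 and Ccl4, highest within each group in the combined library. It gave 1.31, 0.585 and 35.1 CPM with vehicle, then 1.32, 6.80 and 10.5 CPM with 15-HETrE. Its fold change was 0.22 (SE 1.14, adjusted p 0.96, limma), a value whose sign was the opposite without vehicle 1 (-0.35), without vehicle 2 (-0.62) and in edgeR (-0.97). The 14 microglia and macrophage markers summed to 48.3, 53.8 and 171 CPM with vehicle and to 56.1, 106 and 137 CPM with 15-HETrE, and 0 of the 14 were at 0 in all libraries. Of these 14, 8 were highest in vehicle combined among the vehicle libraries, 8 in 15-HETrE combined among the 15-HETrE libraries, and 6 in both. The list was not uniform, as a pair of homeostatic markers named after their values were seen shows: P2ry12 gave 1.68, 1.44 and 27.0 CPM with vehicle, then 4.01, 13.5 and 41.0 CPM with 15-HETrE, while Tmem119 gave 9.91, 11.7 and 6.65 CPM with vehicle, then 0.728, 7.70 and 0.811 CPM with 15-HETrE. The combined libraries were thus the highest of their group for Cx3cr1, Ccl3, Ccl4 and the marker sum, but not for every marker, although CD45-positive cells were meant to be left out of the sort; the part of microglia in these values was not tested.

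**Figure D3:**
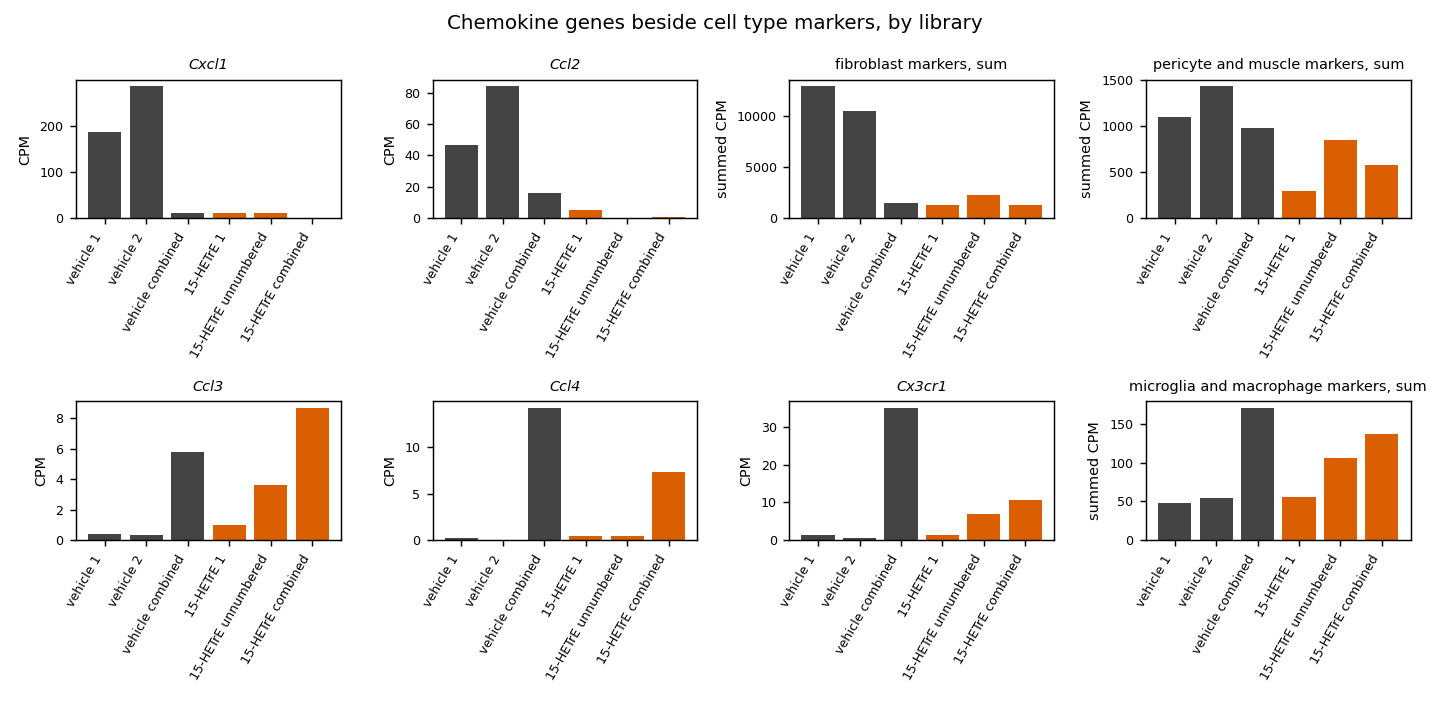
CPM by library for Cxcl1 and Ccl2 beside the summed fibroblast and pericyte markers (top) and for Ccl3, Ccl4 and Cx3cr1 beside the summed microglia markers (bottom); dark bars are vehicle and orange bars 15-HETrE libraries. Cxcl1 and the fibroblast sum are high in vehicle 1 and vehicle 2, and Cx3cr1 and Ccl4 are highest in vehicle combined. Most of the fibroblast sum in vehicle combined, 15-HETrE 1 and 15-HETrE combined is Pdgfra.

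Cx3cl1, Cxcl14 and Cxcl12 are ligands known from uninjured brain. Cx3cl1 gave 202, 113 and 125 CPM with vehicle, then 413, 166 and 155 CPM with 15-HETrE, with 15-HETrE 1 the highest and a log2 difference of 0.63 (SE 0.39, adjusted p 0.635, limma). Vehicle 1 was above 15-HETrE unnumbered and combined, so the groups overlapped, and without 15-HETrE 1 the difference was 0.17. The 12 neuronal markers summed to 3834, 2299 and 2897 CPM with vehicle, then 6862, 3647 and 6456 CPM with 15-HETrE. Of them 10 had a fold change above 0, against 7412 of all 14523 genes, and 7 were higher at an unadjusted p under 0.05 (limma), against 4.27% of all genes. The part of neuronal content in the Cx3cl1 values was not tested. Cxcl14 gave 38.2, 16.5 and 87.4 CPM with vehicle, then 47.9, 51.9 and 132 CPM with 15-HETrE. Its fold change was 0.84 (SE 0.58, adjusted p 0.669, limma), again with overlap, and became 0.25 without vehicle 2, 0.37 without 15-HETrE combined and 1.42 without vehicle combined. The 10 astrocyte markers summed to 1344, 896 and 8525 CPM with vehicle, then 4115, 1587 and 22159 CPM with 15-HETrE, and each was highest within its group in the combined library, as was Cxcl14. Of them 9 had a fold change above 0, against 7412 of all 14523 genes, with a median of 1.05, against 0.02 over all genes. At an unadjusted p under 0.05 (limma) 0 of these markers were higher, against 4.27% of all genes. The part of astrocyte RNA in the Cxcl14 values was not tested. Cxcl12, the ligand of Cxcr4 and Ackr3 that guides migrating neural and blood cells, stood at 75.5, 58.2 and 18.7 CPM with vehicle. With 15-HETrE it stood at 9.01, 35.6 and 32.0 CPM, so its direction was not shared: -2.75 within the first prefix and 0.75 in the combined pair (limma over all 6, -0.96, SE 0.62, adjusted p 0.645). It became -0.36 without 15-HETrE 1 and -1.55 without vehicle combined. The membrane-anchored ligand Cxcl16 gave 2.76, 3.87 and 7.37 CPM with vehicle, then 2.05, 1.97 and 0 CPM with 15-HETrE, a fold change of -1.36 (SE 0.73, adjusted p 0.600, limma), or -0.83 without 15-HETrE combined. Of its exon bases 18.3% are shared with Zmynd15 on the opposite strand, and whether strand was used in counting is not stated.

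The remaining ligands were low. Ccl27a and Ccl28, ligands of Ccr10, averaged 8.31 ± 1.25 and 4.36 ± 2.93 CPM with vehicle against 9.82 ± 4.69 and 5.21 ± 4.13 CPM with 15-HETrE. By library, Ccl27a gave 8.65, 6.93 and 9.35 CPM with vehicle, then 14.8, 9.31 and 5.41 CPM with 15-HETrE. Ccl28 gave 2.48, 2.88 and 7.73 CPM with vehicle, then 4.28, 9.73 and 1.62 CPM with 15-HETrE, and both overlapped between the groups. Ccl27a has a near-identical copy in Ccl27b, which was at 0, and Ccl19 has 2 gene models in GENCODE M21, so how their reads were assigned is uncertain. Ccl19, the ligand of Ccr7, gave 0.654, 1.62 and 0 CPM with vehicle, then 0.911, 0.776 and 2.16 CPM with 15-HETrE. Ccl25, the thymic ligand of Ccr9, gave 3.04, 3.37 and 13.1 CPM with vehicle, then 3.64, 0.119 and 2.57 CPM with 15-HETrE, with vehicle combined the highest. Ccl22, a ligand of Ccr4, gave 0, 0.180 and 15.8 CPM with vehicle, then 0, 0 and 0.946 CPM with 15-HETrE, and 88 of its 99 reads were in vehicle combined. The fold changes of these ligands lay between -1.25 and 0.44, with adjusted p from 0.647 to 0.967 (limma). Without vehicle combined Ccl25 was at -0.67, Ccl22 at 0.20 and Ccl19 at 0.083.

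Per kilobase of exon, the order of the members differed between the groups. In vehicle libraries the levels were 86.0 ± 73.6 CPM per kb for Cxcl1, 42.8 ± 30.0 for Ccl2, 37.4 ± 12.3 for Cx3cl1, 25.9 ± 19.9 for Cxcl14 and 25.3 ± 24.1 for Ccl7 (SD, n = 3). In 15-HETrE libraries Cx3cl1 led at 62.3 ± 37.1 CPM per kb, followed by Cxcl14 at 42.4 ± 26.1, Ackr1 at 17.0 ± 8.19, Ackr3 at 6.10 ± 2.91 and Ccl3 at 5.78 ± 5.07. Cxcl1 and Ccl2 stood there at 4.22 ± 3.03 and 1.88 ± 2.51. Neighbours in each of these orders differed by less than the larger of their SDs, except Ackr1 and Ackr3 with 15-HETrE. Exon lengths are those of GENCODE M21, which may differ from the authors' annotation.

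**Figure D4:**
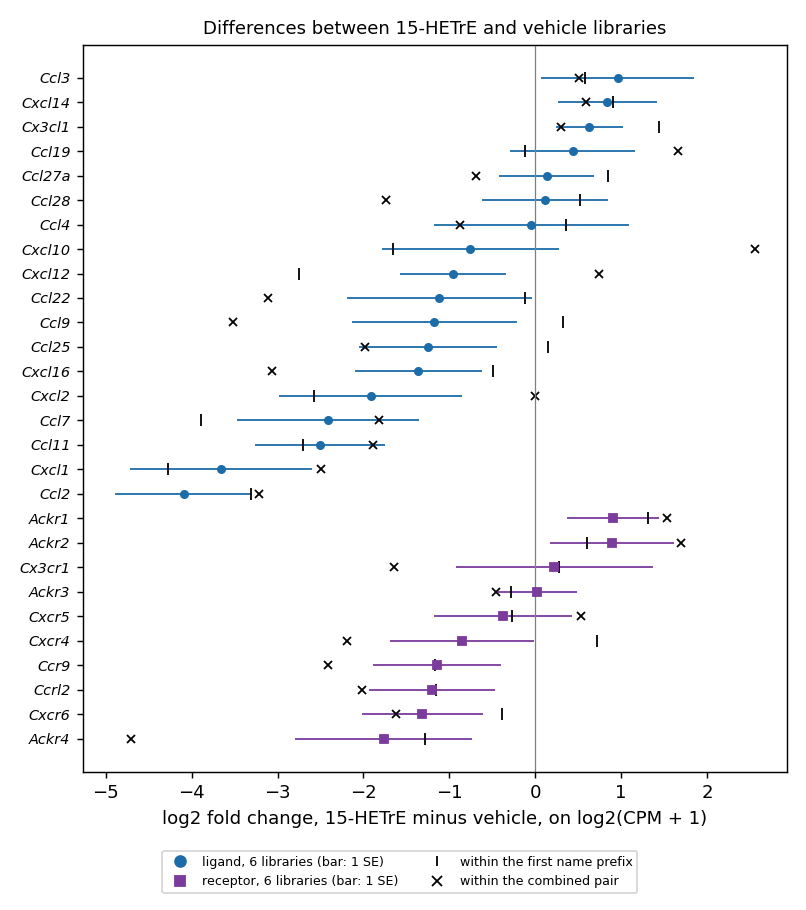
Log2 fold change of each tested member, 15-HETrE minus vehicle on the log2(CPM + 1) scale, with 1 SE as the bar (limma, 6 libraries); vertical ticks give the difference within the first name prefix and crosses that of the combined pair. Ccl2, Cxcl1, Ccl11 and Ccl7 are below 0 by all 3 measures, and for Cxcl10, Cxcl12 and Cxcr4, among others, the tick and the cross lie on opposite sides of 0.

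The receptors of Cxcl1, Cxcl2, Ccl2, Ccl7 and Ccl11 given next were hardly detected in the sorted cells. Cxcr2, the receptor of Cxcl1 and Cxcl2, and Cxcr1 had 0 reads in every library, which allows up to 0.135 to 0.540 CPM per library. Cxcl1 itself had 10836 reads over the 6 libraries. Ccr2, the receptor of Ccl2 and Ccl7, had 2 reads in all, against 3077 for Ccl2, and Ccr3, the receptor of Ccl11, had 0. Cxcr3, the receptor of Cxcl10, had 4 reads, Ccr7 had 2 and Ccr4 had 1. The labels do not say that molecular identifiers were used in counting, and these limits cover counting error only.

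Other receptors were measured in most libraries. Ackr3, the atypical receptor of Cxcl12 that neurons express, averaged 19.3 ± 5.45 CPM with vehicle against 20.4 ± 9.73 CPM with 15-HETrE, for a log2 difference of 0.03 (SE 0.46, adjusted p 0.989, limma). By library it gave 13.1, 23.3 and 21.6 CPM with vehicle, then 14.2, 31.6 and 15.4 CPM with 15-HETrE, with overlap. It had 1873 reads in all 6 libraries, while Cxcr4, the signalling receptor of the same ligand, had 154. Cxcr4 gave 0.888, 1.35 and 7.91 CPM with vehicle, then 2.46, 0 and 0.946 CPM with 15-HETrE, with a fold change of -0.85 (SE 0.84, adjusted p 0.765, limma), or -0.16 without vehicle combined. Cxcr6, the receptor of Cxcl16, gave 2.99, 2.65 and 4.14 CPM with vehicle, then 1.91, 0 and 0.676 CPM with 15-HETrE. The groups did not overlap for Cxcr6, as for its ligand, and its fold change was -1.31 (SE 0.70, adjusted p 0.596, limma). All exon bases of Cxcr6 lie inside the span of Fyco1 on the opposite strand, in its introns. Fyco1 averaged 87.5 ± 54.8 CPM with vehicle against 109 ± 53.8 CPM with 15-HETrE. The part of Fyco1 in the Cxcr6 values was not tested. Cxcr5, the receptor of Cxcl13, gave 0.982, 2.38 and 2.88 CPM with vehicle, then 1.14, 0 and 4.60 CPM with 15-HETrE, with a fold change of -0.37 (adjusted p 0.903, limma). Ccr9, the receptor of Ccl25, gave 2.15, 1.39 and 4.32 CPM with vehicle, then 0.228, 2.03 and 0 CPM with 15-HETrE, with a fold change of -1.14 (adjusted p 0.651, limma). The groups overlapped for both.

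All 5 atypical receptors passed the filter on low levels. Ackr1, which binds many inflammatory chemokines on venules and red cells, gave 16.2, 8.32 and 9.89 CPM with vehicle, then 30.5, 10.6 and 30.5 CPM with 15-HETrE. It had the highest fold change of the 10 receptors, 0.90 (SE 0.53, adjusted p 0.620, limma), which was 1.39 without 15-HETrE unnumbered, and it was higher in 2 of 3 15-HETrE libraries than in any vehicle library. Of its exon bases 25.7% are shared with Cadm3, an adhesion gene of neurons on the same strand, so reads there could count for either; Cadm3 averaged 132 ± 45 CPM with vehicle against 172 ± 72.2 CPM with 15-HETrE. The part of Cadm3 in the Ackr1 values was not tested. The 10 endothelial markers summed to 108 to 232 CPM with vehicle and 42.2 to 121 CPM with 15-HETrE. The lowest endothelial sum was in 15-HETrE 1, where Ackr1 was at 30.5 CPM. The part of endothelial cells in the Ackr1 values was not tested.

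Ackr2, a scavenger of inflammatory CC chemokines, averaged 1.88 ± 1.76 CPM with vehicle against 3.65 ± 0.812 CPM with 15-HETrE, with overlap (fold change 0.89, SE 0.72, adjusted p 0.718, limma), which became 0.36 without vehicle combined, where it had 1 read, and 1.35 without vehicle 1. Ackr2 gave 3.69, 1.75 and 0.180 CPM with vehicle, then 4.46, 3.64 and 2.84 CPM with 15-HETrE by library, and only vehicle 1 reached the 15-HETrE range. Ackr4, a scavenger of Ccl19, Ccl21 and Ccl25, gave 1.59, 1.48 and 25.2 CPM with vehicle, then 0.0455, 3.10 and 0 CPM with 15-HETrE. Its fold change was -1.76 (SE 1.03, adjusted p 0.618, limma) and -0.64 without vehicle combined. The whole of Ackr4 lies within the span of Acad11 on the opposite strand, sharing 8.90% of its exon bases with Acad11 exons. Acad11 had 27.5 CPM in vehicle combined and 29.8 and 20.1 CPM in vehicle 1 and vehicle 2. The part of Acad11 in the Ackr4 values was not tested. Ccrl2, which holds the attractant chemerin at the cell surface, gave 4.72, 8.50 and 4.14 CPM with vehicle, then 2.32, 4.42 and 0.270 CPM with 15-HETrE, with overlap (fold change -1.20, SE 0.73, adjusted p 0.627, limma, and -0.62 without 15-HETrE combined).

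Genes that act around chemokines were read from lists. Of 23 inducers and feedback regulators of chemokine transcription, 22 were tested, and at an unadjusted p under 0.05 10 were lower, against 5.23% of all genes, and 3 higher, against 4.27%, while 0 passed over all genes (limma). Their median fold change was -0.96, against 0.02 over all genes. Tnfrsf1a, a receptor of tumour necrosis factor, averaged 48.0 ± 20.4 CPM with vehicle against 14.9 ± 1.01 CPM with 15-HETrE (fold change -1.53, adjusted p 0.394, limma). Il1r1, the interleukin-1 receptor, had 86.2 ± 59.9 and 12.9 ± 10.5 CPM (-2.64, adjusted p 0.425, limma). By library Il1r1 gave 132, 108 and 18.3 CPM with vehicle, then 13, 23.3 and 2.43 CPM with 15-HETrE, and it was high in vehicle 1 and vehicle 2, as was the fibroblast marker sum given above (12837 and 10423 CPM there and 1258 to 2271 CPM in the others). Pdgfra made up most of that sum in vehicle combined, 15-HETrE 1 and 15-HETrE combined, as given above. The part of fibroblasts in these values was not tested. In the other direction, Il1a, which encodes a ligand of that receptor, gave 0, 0.360 and 0 CPM with vehicle. With 15-HETrE it gave 6.15, 5.85 and 12.6 CPM, without overlap (2.98, adjusted p 0.334, limma). Il1a averaged 0.120 CPM with vehicle and passed the filter on low levels only through its 15-HETrE values. The direction of its mean CPM thus followed from the filter. Other genes of this list also averaged under 1 CPM with vehicle or with 15-HETrE, and they are part of its counts and median.

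Downstream of the receptors, 36 of the listed signalling genes were in the table and 29 were tested; 2 were lower, against 5.23% of all genes, and 0 higher, against 4.27%, at an unadjusted p under 0.05, and their median fold change was -0.10. Pik3r5, a regulatory subunit of the phosphoinositide 3-kinase that G proteins activate, gave 8.13, 9.45 and 28.1 CPM with vehicle, then 5.96, 0.179 and 0 CPM with 15-HETrE (-2.80, adjusted p 0.422, limma). Rhoa, a small GTPase of cell movement, had 339 ± 81.8 and 222 ± 17.4 CPM (-0.58, adjusted p 0.522, limma). Gnai1, an inhibitory G protein subunit, had 180 ± 49.2 and 255 ± 13.2 CPM, and the kinase gene Src had 48.9 ± 5.75 and 87.8 ± 45.2 CPM. Of 7 attractants and receptors outside the naming rule, 5 were tested. The scavenging receptor gene Gpr182 had 2.40 ± 0.617 and 0.207 ± 0.262 CPM (-1.50, adjusted p 0.524, limma), and Cmklr1 and Mif had fold changes of -0.93 and 0.06. Gpr182 and Cmklr1 averaged under 1 CPM with 15-HETrE and passed the filter on low levels only through their vehicle values. The direction of their mean CPM thus followed from the filter.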

How the data were processed

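Per the submitters' processing notes, reads were handled with Trimmomatic, HISAT2, featureCounts and edgeR on mm10; their versions and the annotation: not given in the sources used here. Per the file's name the authors deposited CPM from edgeR; column sums differ from those of plain CPM, so the deposited values are treated as a signal, CPM rescaled by a factor per library, a step that is inferred from the values and not recorded. Column names placed each library in its group and carry 3 prefixes; 3 columns carry a replicate number, and 0 columns were left unused. The deposited signal was divided by its smallest value above 0 in each column, and 100% of values were whole reads within 1e-04, giving recovered read counts. Genes averaging 1 CPM or more were kept, and limma 3.58.1 (R 4.3.3) was run on log2(CPM + 1) with group as the only term and a variance trend, after the scripts were tested on simulated data. The alternatives used pseudocounts 0.5, 0.1 or 5, a 5 CPM filter or none, TMM and median-of-ratios rescaling, library weights, edgeR 4.0.16, DESeq2 1.42.0, each library left out, both combined libraries left out, and a prefix term. The design had been written for CPM and was applied to the scaled CPM. Members and lists were chosen with earlier results of these data known. Members averaging 1 CPM or more are named with every library's value, and from each pathway list the 2 genes with the smallest p in each direction; genes overlapping a member were named after their values were seen. Positions, exon lengths and overlaps are from GENCODE M21 on GRCm38, which mm10 names. Some members and listed genes are not reported here.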

Additional observations from a re-analysis of the deposited data

How the results depend on the processing

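The sign of the fold change was the same under all 18 alternatives for 17 of the 28 members, among them Ccl2, Cxcl1, Ccl11, Ccl7 and Cxcl2; those under a mean of 5 CPM had no value with that filter. The number of genes called went from 0 to 165 with DESeq2, 2425 with library weights, 8 with the prefix as a batch term and 157 without both combined libraries, and to between 0 and 91 with single libraries left out, 91 being without vehicle combined. Library weights called 10 members: Ccl2, Ccl7, Ccl11, Cxcl1, Cxcl2, Cxcl10 and Cxcl12 lower and Ackr1, Cx3cl1 and Cxcl14 higher. The weights were 3.16 for 15-HETrE 1, 0.508 for 15-HETrE unnumbered and 0.441 for 15-HETrE combined. On the treated side these calls therefore rest mostly on 15-HETrE 1. Members at an unadjusted p under 0.05 numbered 4 (9.5% of all genes passed that p), then 2 with the filter at 5 CPM (10% of all genes), 11 with weights (29.7%), 7 without both combined libraries (15.1%), 9 with the prefix term (15.9%) and 2 to 7 with single libraries left out (4.92% to 14.7%). The ligand median of -1.04 became -1.40, -0.57, -0.29, -1.44 and -0.21 with a pseudocount of 0.1, a pseudocount of 5, no filter, the filter at 5 CPM and weights, -1.47 with edgeR and with DESeq2, -0.34 without both combined libraries and -1.14 to -0.39 with single libraries left out. The receptor median of -0.61 became -1.53 with a pseudocount of 0.1, -0.061 with no filter, 0.12 with the filter at 5 CPM, -1.13 with edgeR and -1.16 with DESeq2, and -0.93 to -0.17 with single libraries left out. The cause of these shifts was not tested.

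Signs turned for 11 members whose fold changes were small against their SE or rested on few libraries. Ccl4 was at 0.10 and 0.59 with pseudocounts of 0.5 and 0.1, 0.54 with weights and 0.37 without both combined libraries, and it ranged from -0.88 to 1.20 with single libraries left out, above 0 without vehicle combined, 15-HETrE 1 or 15-HETrE unnumbered. Cx3cr1 was at -0.095 with a pseudocount of 5, -0.97 with edgeR, -1.03 with DESeq2, -0.55 with the prefix term and -0.62 to 1.63 with single libraries left out, below 0 without vehicle 1, vehicle 2 or 15-HETrE combined. Ackr3 was at -0.27 with weights, -0.36 with the prefix term and -0.32 to 0.23 with single libraries left out, below 0 without vehicle 1 or 15-HETrE unnumbered. Ccl28 was at -0.44 with the prefix term and -0.40 to 0.62 with single libraries left out, below 0 without vehicle 1, vehicle 2 or 15-HETrE unnumbered. With weights, Ccl19, Ccl9 and Cxcr4 were at -0.13, 0.17 and 0.28; Ccl19 was at -0.18 without both combined libraries. Cxcl10 and Cxcr5 were at 0.15 and 0.069 with the prefix term. With single libraries left out, Ccl22 ranged from -1.84 to 0.20 (the latter without vehicle combined), Ccl27a from -0.19 (without 15-HETrE 1) to 0.46 and Cxcr5 from -1.02 to 0.22 (the latter without 15-HETrE unnumbered). No paired analysis was possible because the numbered columns of the 2 groups share only the replicate number 1. The name prefix, which is no replicate number, was fitted as a batch term above. As 15-HETrE unnumbered is the only library of its prefix, it adds nothing to the fold changes of that fit, which rest on the other libraries. A member with 0 reads could have been present at up to 0.135 to 0.540 CPM, depending on the depth of the library.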

Other observations

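The tested members were spread unevenly over the libraries. Vehicle combined, the shallowest library, held the highest CPM of 10 of the 28: Ackr4, Ccl4, Ccl9, Ccl22, Ccl25, Ccr9, Cx3cr1, Cxcl16, Cxcr4 and Cxcr6. Vehicle 2 was highest for 6 (Ccl2, Ccl7, Ccrl2, Cxcl1, Cxcl2 and Cxcl10) and vehicle 1 for Ccl11 and Cxcl12. The 15-HETrE libraries were highest for the other 10, with Cx3cl1, Ccl27a and Ackr2 in 15-HETrE 1, Ackr3 and Ccl28 in 15-HETrE unnumbered, and Ackr1, Ccl3, Ccl19, Cxcl14 and Cxcr5 in 15-HETrE combined. The limma weights, estimated from all genes, were 1.82, 3.75 and 0.206 for vehicle 1, vehicle 2 and vehicle combined. For 15-HETrE 1, unnumbered and combined they were 3.16, 0.508 and 0.441.

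Other members lie on or inside other genes. Ccr10 lies within the span of Cntnap1, a gene of myelinated axons on the opposite strand; its 29 reads were 22 in vehicle 1, 6 in vehicle 2 and 1 in 15-HETrE 1, while Cntnap1 averaged 38.4 ± 12.7 CPM with vehicle against 89.7 ± 31.9 CPM with 15-HETrE. Cxcl10 lies within the span of Art3 on the opposite strand, with 5.91% of its exon bases in Art3 exons. Art3 had 32.0 CPM in vehicle combined, where Cxcl10 had 0 reads. The part of Cntnap1 in the Ccr10 reads and that of Art3 in the Cxcl10 values were not tested.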
